A study of Mus musculus with 2 samples.

Results

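The microRNAs (miRNAs) described here mark blood cells of 2 lineages, and they were read in whole adrenal glands. Mir144, Mir451a and Mir486 stand for red cells, and Mir223, Mir150, Mir155 and Mir146b stand for white cells. These 7 genes were found by symbol among the 2202 miRNA genes of the count tables. Of the 7, 6 had at least 10 counts in both libraries, a level that 15.4% of all miRNA genes reached. Mir146b did not. The glands came from male B6CASTF1/J mice, first-generation offspring of C57BL/6J and CAST/EiJ parents, at 4 days of age. Per the labels they were biological replicate 1, from male number 3, and biological replicate 2, from male number 4. The labels gave both males the same donor entry, so it is the numbers of the males that make them 2 animals. Each animal gave 1 library, so differences between the animals cannot be told apart from differences between library preparations. They named no treatment, no genetic change and no removal of blood from the tissue, and no second group was present.

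A miRNA is cut from a folded hairpin and guides the Argonaute protein to messenger RNAs that pair with its seed, the stretch from base 2 to base 8. In the red lineage Mir144 and Mir451a are transcribed together under GATA1, and miR-451a is among the most abundant miRNAs of erythrocytes. It is made in an unusual way, since Argonaute-2 and not Dicer cuts its hairpin. In the white lineage miR-223 belongs to neutrophils and monocytes, and miR-150 belongs to mature lymphocytes. MiR-155 is induced when lymphocytes and macrophages are activated, and miR-146b answers inflammatory signals. Organs hold blood in their vessels and leukocytes in their tissue, and such miRNAs are found in the RNA of most organs. In a whole gland, fewer cells of a type and less RNA per cell cannot be told apart.

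The hairpins of Mir144 and Mir451a are shown first, because the largest fold differences among the tested members belong to this locus and the forms of the 2 hairpins differ. Sequences are those of RefSeq on GRCm38.p6, which is the same build as mm10, written 5′ to 3′ with the mature miRNAs in capitals. Mature sequences of 6 of the 7 members were matched in this table, Mir150 through miR-150-3p alone, and none was matched for Mir486.
Mir144 hairpin: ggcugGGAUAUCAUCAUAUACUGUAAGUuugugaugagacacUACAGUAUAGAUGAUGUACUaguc
Mir451a hairpin: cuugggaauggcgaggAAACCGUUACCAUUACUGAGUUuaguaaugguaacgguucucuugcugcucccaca
Mir144 is annotated with a mature miRNA on each arm of its 66-base hairpin, at positions 6 to 28 and 43 to 62. In Mir451a the mature miRNA ran from position 17 to position 38 of 72 and so crossed the middle of the hairpin. In the fold predicted with RNAfold, all 4 bases of its terminal loop belonged to miR-451a. None of the other 8 mature sequences of Mir144, Mir223, Mir155 and Mir146b reached into the predicted loop.

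The mature sequences below are those of Mir144, Mir451a, Mir223, Mir155 and Mir146b with the best-known functions, with the seed in capitals. The sequence of miR-146a-5p, a paralogue from another chromosome, is added since its seed is the same as that of miR-146b-5p.
miR-144-3p: uACAGUAUagaugauguacu
miR-451a: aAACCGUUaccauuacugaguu
miR-223-3p: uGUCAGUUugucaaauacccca
miR-155-5p: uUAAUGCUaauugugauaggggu
miR-146b-5p: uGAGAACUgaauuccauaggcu
miR-146a-5p: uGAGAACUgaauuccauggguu
No 2 of the matched members had a seed in common, with Mir150 read from miR-150-3p. Among 1679 mature miRNA names in the table, the complete seed of miR-146b-5p was shared by miR-146a-5p, and no other miRNA shared all 7 seed bases of a matched member's mature sequence. The seed of miR-144-3p matched that of miR-101a-3p over bases 2 to 7. MiR-146a-5p and miR-146b-5p were identical at 20 of 22 positions, the first 17 included. Counted from the 5′ end with miR-146a-5p given first, they differed by G18A and U21C. The other mature sequences had no run longer than 11 bases in common with a different annotated hairpin, apart from 16 bases that miR-451a shares with Mir451b, the gene annotated on its opposite strand.

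On mm10, Mir144 (ENSMUSG00000065401.1) lies at chromosome 11, 78073005 to 78073070, and Mir451a (ENSMUSG00000070065.1) at chromosome 11, 78073170 to 78073241. Both are on the plus strand with 99 bases between them, and neither overlaps a protein-coding gene. Mir486 (ENSMUSG00000070084.3), at chromosome 8, 23142555 to 23142682, sits in an intron of Ank1, which encodes the ankyrin of the red cell membrane skeleton. Mir223 (ENSMUSG00000076066.1), at chromosome X, 96242817 to 96242926, overlaps an exon of the noncoding gene F630028O10Rik. Mir150 (ENSMUSG00000065495.1), at chromosome 7, 45121757 to 45121821, lies between annotated genes. Mir155 (ENSMUSG00000065397.1), at chromosome 16, 84714140 to 84714204, overlaps an exon of Mir155hg, the noncoding transcript it is cut from. Mir146b (ENSMUSG00000070127.2), at chromosome 19, 46342762 to 46342870, lies in an intron of the protein-coding gene Mfsd13a.

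Each value below is a read count on the strand of the miRNA gene, or that count scaled to 1000000 such counts in the library (CPM). Replicate 1 held 3961630 of these counts and replicate 2 held 1686822, and they were 33.7% and 25.7% of the reads in the tables. Reads that aligned to more than 1 locus, 27.0% and 25.7%, were not counted for any gene. Counts belong to a hairpin, so its arms were not told apart. The tissue label was read against miRNAs of adrenal cells. Mir375 of endocrine cells stood at 31129 and 42377 CPM, and the cortex-linked Mir202 stood at 54.0 and 75.9 CPM in replicates 1 and 2.

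The level of Mir451a ran far above the other members in replicate 1 only. It had 27106 counts, or 6842 CPM, in replicate 1 and 828 counts, or 491 CPM, in replicate 2. This made it the miRNA gene of rank 31 in replicate 1 and of rank 128 in replicate 2. Its partner Mir144 had 1558 counts (393 CPM) in replicate 1 and 143 counts (84.8 CPM) in replicate 2, with ranks of 140 and 217. Both genes of the locus were therefore high in the same animal. Mir486 had few counts in both, with 49 counts (12.4 CPM) and 33 counts (19.6 CPM), and its higher level lay in replicate 2. How many of its reads were set aside for aligning also to Mir3107, annotated on its opposite strand, was not tested. The counts of Mir486 and the ratios made with them may therefore miss part of its reads.

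Among the white-lineage genes Mir223 had 739 counts (187 CPM) in replicate 1 and 879 counts (521 CPM) in replicate 2. Its higher level lay in replicate 2. Mir150 had 525 counts (133 CPM) and 221 counts (131 CPM), nearly equal levels. Mir155 had 467 counts (118 CPM) and 117 counts (69.4 CPM), with the higher level in replicate 1. Mir146b had 1 count and 4 counts, or 0.252 and 2.37 CPM, near the levels of 0.757 and 1.78 CPM that a count of 0 would still allow at 3 counts a library.

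**Figure D1:**
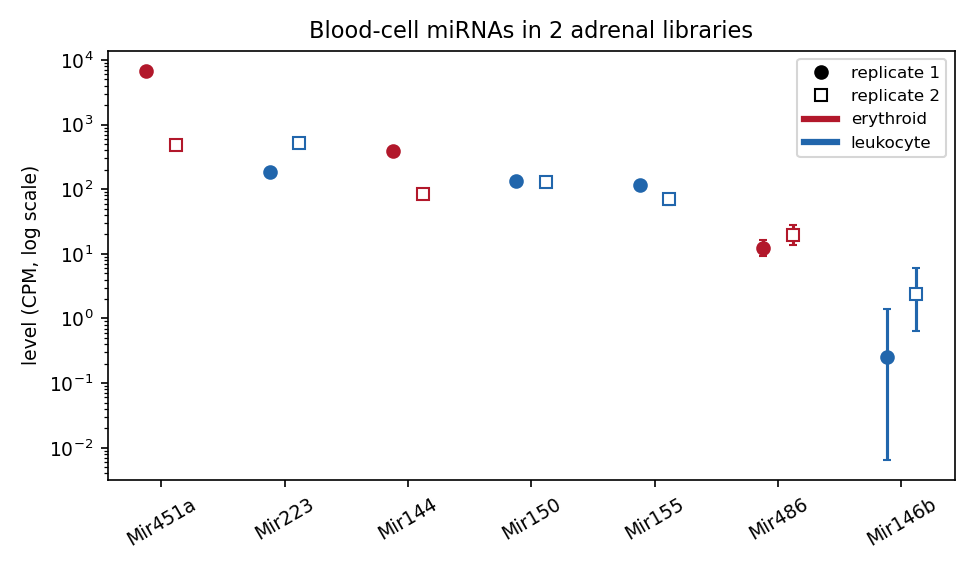
Level of each member in CPM on a log scale, with filled circles for replicate 1, open squares for replicate 2, and bars for the exact 95% interval of counting error. Mir451a stands at 6842 and 491 CPM, Mir150 at 133 and 131 CPM, and the wide bars of Mir146b come from 1 and 4 counts.

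By mean level the order was Mir451a with 3666 ± 4491 CPM (SD, n = 2), Mir223 with 354 ± 237, Mir144 with 239 ± 218, Mir150 with 132 ± 1.06, Mir155 with 93.6 ± 34.3, Mir486 with 16.0 ± 5.09 and Mir146b with 1.31 ± 1.50. The upper part of this order rests on the spread between the animals. The values of the 2 libraries overlapped between Mir451a and Mir223, between Mir223 and Mir144 and between Mir144 and Mir150. Those of Mir150 lay above those of Mir155, Mir486 and Mir146b, and each of the latter lay above the next. In replicate 2 Mir223, at 521 CPM (exact 95% interval 487 to 557), and Mir451a, at 491 CPM (458 to 525), could not be separated by counting error. Divided by hairpin length, Mir144 with 362 CPM per 100 bases stood ahead of Mir223 with 322, and no other neighbours changed places.

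The difference between the libraries was tested for each miRNA gene with an exact binomial test on its counts. The p-values were adjusted over all tested genes by the Benjamini-Hochberg method. The test covered the 404 genes that reached 10 counts in at least 1 library. A call needed an adjusted p under 0.05 and a log2 ratio of replicate 2 over replicate 1, on CPM + 0.5, above 1 or below -1. Such a call concerns these libraries and their counting error, since there is no further animal against which to check it. Of the 6 members tested, 3 were called, against a background of 18.3% of all tested genes. Mir451a and Mir144 were lower in replicate 2, as were 8.66% of tested genes, and Mir223 was higher, as were 9.65%.

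Mir451a was 13.9-fold lower in replicate 2 than in replicate 1 (exact 95% interval 13.0 to 15.0), a log2 ratio of -3.80. The size of this ratio ranked 6 among the 404 tested genes, whose median size was 0.50. Mir144 was 4.64-fold lower (3.91 to 5.54), with a log2 ratio of -2.21, an adjusted p of 9.62e-103 in the exact test and rank 22. The 2 genes of the locus thus moved in the same direction, but by unequal amounts. Mir486 went the other way without being called, at 1.58-fold higher in replicate 2 (0.985 to 2.51), a log2 ratio of 0.64 and an adjusted p of 0.0802 in the exact test.

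Mir223 was 2.79-fold higher in replicate 2 (2.53 to 3.08), with a log2 ratio of 1.48, an adjusted p of 6.53e-92 in the exact test and rank 42 of the 404 genes. Mir155 was 1.70-fold lower (1.38 to 2.10). Its adjusted p in the exact test was 2.14e-07, but its log2 ratio of -0.76 did not reach the fold threshold. Mir150 had a ratio of 0.989 (0.841 to 1.16), a log2 ratio of -0.02 and an adjusted p of 0.947 in the exact test. Its rank of 396 placed it among the tested genes that differed least. Mir146b was not tested, and its ratio of 9.39 had an interval from 0.930 to 463.

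**Figure D2:**
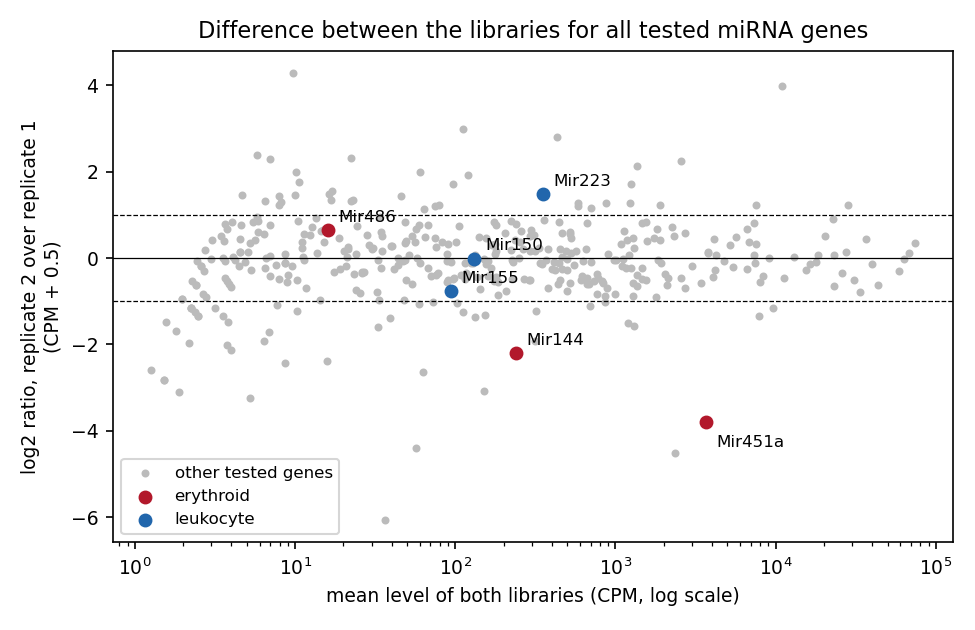
Log2 ratio of replicate 2 over replicate 1 against mean level (CPM, log scale) for the 404 tested genes, with the 6 tested members named and dashed lines at 1 and -1. Mir451a at -3.80 and Mir144 at -2.21 lie below the lower line, Mir223 at 1.48 lies above the upper one, and Mir486, Mir150 and Mir155 lie between them.

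A test that allows for a spread between the 2 libraries made fewer calls. The common dispersion of edgeR over the 404 genes was 0.188, which is a coefficient of variation of 0.434 between these libraries. With it, the edgeR exact test called 6 genes, or 1.49% of those tested. Mir451a was one of them, with an adjusted p of 0.0137. Mir144 and Mir223 were no longer called, with adjusted p-values of 0.515 and 1.00 in the same edgeR test. The dispersion was estimated from the same 2 libraries, their differences included.

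Summed over the red lineage, counts were 28713 in replicate 1 and 1004 in replicate 2. These were 0.725% (exact 95% interval 0.716 to 0.733%) and 0.0595% (0.0559 to 0.0633%) of miRNA counts. The red-lineage sum was 12.2-fold lower in replicate 2 (11.4 to 13.0), and with 94.4% and 82.5% of it Mir451a set its size. White-lineage counts were 1732 and 1221, or 0.0437% (0.0417 to 0.0458%) and 0.0724% (0.0684 to 0.0766%). This sum was 1.66-fold higher in replicate 2 (1.54 to 1.78). Red-lineage counts were 16.6 times white-lineage counts in replicate 1 (15.8 to 17.4) and 0.822 times in replicate 2 (0.756 to 0.895). By the members counted here, the lineage with more counts was thus not the same in the 2 libraries. The red-lineage sum may miss reads of Mir486 that also align to Mir3107. How far this affects the order in replicate 2 was not tested. The median log2 ratio was -2.21 over the 3 red-lineage genes and -0.02 over the 3 tested white-lineage genes, and it was -0.05 over all tested genes.

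Ratios between genes of the same library do not depend on its total, so they show the unequal differences directly. Mir451a had 17.4 counts for each count of Mir144 in replicate 1 (exact 95% interval 16.5 to 18.3) and 5.79 in replicate 2 (4.84 to 6.96). The 2 hairpins, which lie 99 bases apart on the same strand, therefore differed in their proportion by 3.00-fold between the animals. Mir144 had 31.8 counts for each count of Mir486 in replicate 1 (23.9 to 43.2) and 4.33 in replicate 2 (2.95 to 6.53). Mir451a had 553 (418 to 748) and 25.1 (17.7 to 36.7) for each count of Mir486. All 3 intervals of replicate 1 lay above those of replicate 2. They cover counting error only, and the share of all gene pairs that separate in this way was not computed.

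**Figure D3:**
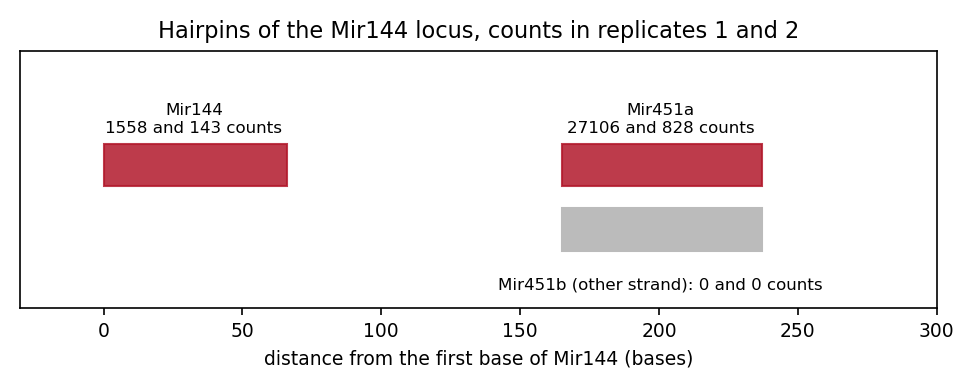
Map of the Mir144 and Mir451a hairpins to scale, in bases from the first base of Mir144, with Mir451b on the other strand in grey and the counts of replicates 1 and 2. Mir451a has 27106 and 828 counts, Mir144 has 1558 and 143, and Mir451b has 0 in both.

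The white-lineage genes also differed in proportion. The count of Mir223, the myeloid gene, was 1.41 times that of the lymphocyte gene Mir150 in replicate 1 (exact 95% interval 1.26 to 1.58) and 3.98 times in replicate 2 (3.43 to 4.63). Against Mir155, the gene of activated cells, it was 1.58 times (1.41 to 1.78) and 7.51 times (6.19 to 9.19). Mir150 had 1.12 counts for each count of Mir155 in replicate 1 (0.991 to 1.28) and 1.89 in replicate 2 (1.50 to 2.38). None of these 3 pairs had overlapping intervals, while the 3 pairs with Mir146b did, given its 1 and 4 counts. These intervals cover counting error only. With no fold threshold, 62.1% of the 404 tested genes had an adjusted p under 0.05 in the exact binomial test. The share of all gene pairs that separate in this way was not computed. Mir223 made up 42.7% of white-lineage counts in replicate 1 (40.3 to 45.0%) and 72.0% in replicate 2 (69.4 to 74.5%). The share of Mir155 was 27.0% (24.9 to 29.1%) and 9.58% (7.99 to 11.4%), and that of Mir150 was 30.3% (28.2 to 32.5%) and 18.1% (16.0 to 20.4%).

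**Figure D4:**
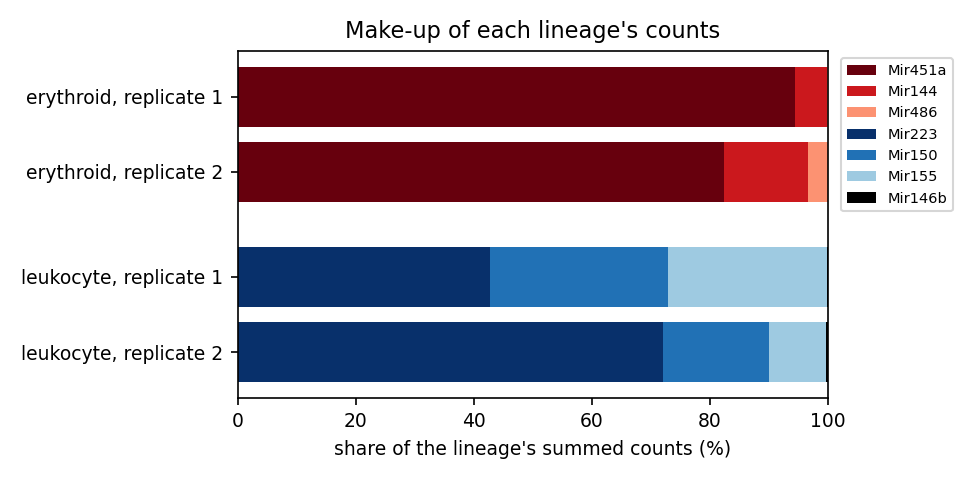
Share of each member in its lineage's summed counts, in percent, with 1 bar for each lineage and replicate. Mir451a takes 94.4% and 82.5% of the red-lineage bars, and Mir223 takes 42.7% and 72.0% of the white-lineage bars. Reads of Mir486 set aside for aligning to several loci, if any, are not in the bars.

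The choice of count column decides whether Mir451a and Mir486 are seen at all. Both have a miRNA gene annotated on the opposite strand, Mir451b for Mir451a and Mir3107 for Mir486. In the column that joins both strands, Mir451a and Mir486 had 0 counts in both libraries. On the strand of Mir451b there were 0 counts in both libraries, and on the strand of Mir3107 there was 1 count in each. For Mir144, Mir223, Mir150, Mir155 and Mir146b, the column that joins both strands gave the same counts as the sense strand, and the opposite strand had 0 counts.

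Other miRNA genes linked to blood cells were read as well, among them Mir451b and Mir3107, which lie opposite red-lineage members. Of 11 symbols listed, 8 were in the tables. Of the 5 that could be tested none was called different, against 18.3% of all tested genes. With only 5 genes, this cannot be told apart from that share. Mir142a, Mir146a and Mir486b were not found under these symbols. The median log2 ratio of the 5 tested genes was 0.59, and 4 of the 5 ratios lay above 0. Mir142, Mir146 and Mir342 passed the p threshold of the exact binomial test but not the fold threshold. That p threshold was passed by 62.1% of all tested genes. Mir142, which is made throughout the blood lineages, had 1667 and 1040 counts, or 421 and 617 CPM, a log2 ratio of 0.55. Mir146, the source of miR-146a-5p, had 1924 and 1435 counts, or 486 and 851 CPM, with a log2 ratio of 0.81.

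Mir342, which is found in lymphocytes but also in other tissues, stood at 1392 and 2225 CPM, with a log2 ratio of 0.68. It was thus more abundant than any white-lineage member. Mir511, in the gene of the macrophage mannose receptor, had 18 and 12 counts, and the macrophage gene Mir147 had 19 and 5. Mir142b and Mir451b had 0 counts in both libraries, which allows up to 0.757 CPM in replicate 1 and 1.78 CPM in replicate 2. Mir3107 had 1 count in each.

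The pair that shares a seed was very unequal. Mir146 had 1924 counts in replicate 1 against 1 count of Mir146b, a ratio with an exact 95% interval from 345 to 76033. In replicate 2 it had 359 times the count of Mir146b (140 to 1318). Reads that end before base 18 cannot separate the 2 miRNAs, because their first 17 bases are the same. How many such reads were among those set aside for aligning to several loci was not tested.

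**Figure D5:**
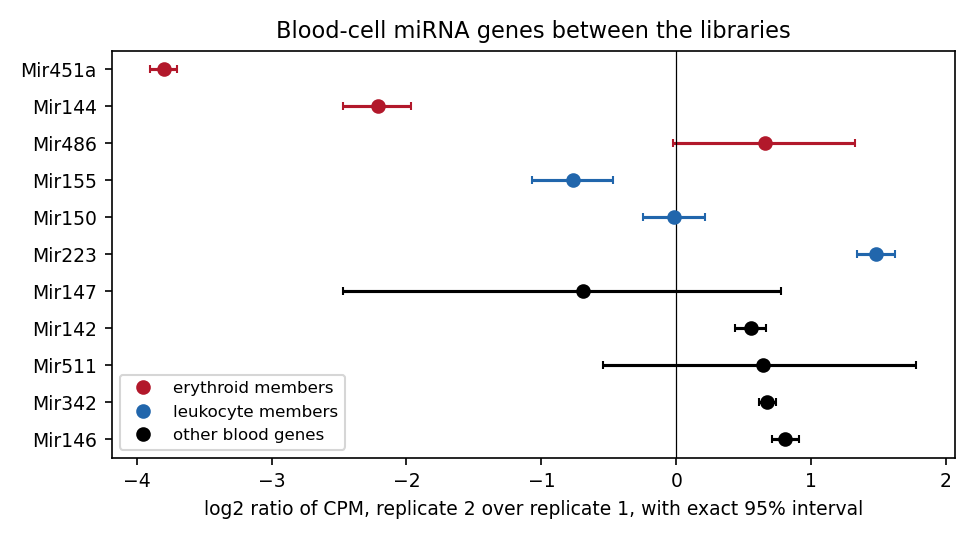
Log2 ratio of CPM, replicate 2 over replicate 1, with exact 95% intervals for 6 members and 5 other miRNA genes of blood cells. Mir451a and Mir144 lie far to the left, Mir223 lies to the right, and Mir142, Mir342 and Mir146 lie right of 0 but below 1.

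MiRNAs of other cell types also differed between the 2 animals. Mir122, the main miRNA of hepatocytes, stood at 1299 CPM in replicate 1 and 20602 CPM in replicate 2, so it was 15.9-fold higher in replicate 2. Mir206 of skeletal muscle stood at 1130 and 2646 CPM. The other muscle genes Mir1a-1, Mir1a-2, Mir1b, Mir133a-1, Mir133a-2 and Mir133b had at most 13 counts in either library, and Mir133a-2 had 0. How many reads of these numbered copies were set aside for aligning to several loci was not tested, so their low counts do not show that they were absent. The 5 kidney genes summed to 241 and 379 CPM, with Mir192 and Mir194-2 higher and Mir194-1 and Mir215 lower in replicate 2.

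Genes of the vessel wall differed less. Mir126a of endothelium stood at 65222 and 83391 CPM, a log2 ratio of 0.35, and Mir143 of smooth muscle and stroma stood at 41567 and 37940 CPM, a log2 ratio of -0.13. For each count of Mir126a there were 0.105 counts of Mir451a in replicate 1 (exact 95% interval 0.104 to 0.106) and 0.00589 in replicate 2 (0.00549 to 0.00630). Of 4 medulla and neuroendocrine genes Mir7-2 was called lower in replicate 2, and of 4 cortex-linked genes Mir483 and Mir132 were called higher. What part these differences in tissue markers have in the red-lineage and Mir223 differences was not tested.

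Other genes with log2 ratios near those of the leading members were sought among 206 genes of at least 100 CPM on average. Nearest to Mir451a were Mir301 with -4.50, the epithelial Mir200b with -3.07 and Mir101a with -1.92, which lay 1.88 away. Few genes of that level thus had a negative ratio of this size. In the other direction, Mir122 had a larger one, 3.99. Mir101a, whose product shares seed bases 2 to 7 with miR-144-3p, had 1984 counts (501 CPM) in replicate 1 and 223 counts (132 CPM) in replicate 2. Nearest to Mir223 were Mir455 with 1.28, Mir501 with 1.27 and Mir107 with 1.27. This likeness is a description over 2 libraries and holds for the direction and size of 1 difference.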

How the data were processed

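The authors deposited 1 table of read counts per library, with 3 count columns and 4 summary rows for reads given to no gene. Per the file lists deposited with the tables, genome build mm10 and annotation M21 were used. Aligner, trimming and read filters are not given in the sources used here. The column meanings were read from the summary rows, whose layout is that of STAR gene counts. Of the strand columns, the one with the larger total was taken as the sense strand. Summary rows, 66.3% and 74.3% of reads, stayed out of totals and tests. Symbols and positions came from GENCODE M21. The members and lists were chosen with earlier results of these data known. All members are named. Other genes are named from the lists, from the strand opposite to a member, or as the 3 nearest in log2 ratio to Mir451a and Mir223.

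Exact binomial tests, Clopper-Pearson intervals and ratios were computed with Python 3.11.15 and scipy 1.17.1. The test was tried on simulated Poisson counts, which hold only the counting error that it assumes. That trial had no spread between animals and cannot show how the test behaves under such spread. The tests and intervals cover counting error only, and not the spread between animals. They treat reads as independent molecules, which reads are not, so even the counting error may be understated. Scaling and the dispersion test used edgeR 4.0.16 and DESeq2 1.42.0 in R 4.3.3. Folds were predicted with RNAfold 2.7.2. A quasi-likelihood fit with a term for each library would leave no residual degrees of freedom. Alternatives covered the count column, scaling, denominator, count minimum, added CPM, fold threshold, test and leaving out a library.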

Additional observations from a re-analysis of the deposited data

How the results depend on the processing

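The call on Mir451a held under each alternative that counted it, while 1 of 6 tested members was called by the edgeR exact test with common dispersion, against 3 by the exact binomial test. Over all genes that test called 6, or 1.49%, against 74, or 18.3%. A log2 ratio beyond 0.58 called 132 genes, 32.7% of the 404 tested, and 4 of 6 members. No fold threshold called 251 genes, or 62.1%, and the same number of members, a share near that of all genes. Mir155 was the member added in both. In the column that joins both strands Mir451a and Mir486 had no counts, which left 4 members detected, 2 called (Mir144 and Mir223, where 18.9% of 376 tested genes were called) and a red-lineage mean of 272 CPM in place of 3921. TMM and DESeq2 scaling shifted log2 ratios by -0.107, to -3.91 for Mir451a, -2.31 for Mir144 and 1.37 for Mir223. Both kept the same 3 member calls, where 19.6% of tested genes were called. Per 1000000 reads of the whole table, the white-lineage mean was 167, since unassigned reads entered the denominator, and the red-lineage mean was 1296. On that total Mir150 had a mean of 39.2 with an SD of 7.71, against 132 with an SD of 1.06 in CPM. The nearly equal levels of Mir150 therefore depend on the denominator. Leaving out a library gave 595 to 7248 CPM for the red-lineage sum and 437 to 724 CPM for the white-lineage sum, which with 2 libraries are the values of the libraries themselves. No log2 ratio of the 6 tested members changed sign under the alternatives run. No paired analysis was possible because the series has 1 group. Depth limits Mir146b, with 1 and 4 counts, and Mir486, with 49 and 33. For Mir486, reads set aside for aligning to several loci were not examined either.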
